A study of Homo sapiens with 3 samples.

Results

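The Input library of MDA-MB-231 cells, 1 of the 3 RNA libraries of the series, was described for the abundance of its long non-coding RNAs (lncRNAs). Its members were all transcripts of the lncRNA table, each taken once: 334 transcripts of 293 loci, of which 3 transcripts of 2 loci lie in the ribosomal DNA on the short arm of chromosome 21 and were set apart. The remaining 331 transcripts of 291 loci were ranked. MDA-MB-231 is an established triple-negative breast cancer line that carries mutant p53. The cells had been transfected with a plasmid for Flag-tagged focal adhesion kinase (FAK), and the library was made from 10% of the RNA that entered the immunoprecipitations. There was no untransfected control and no second Input library, so no test, SD or p-value is given and each level describes this library. Intervals are exact Poisson intervals (95%) of the reads, rescaled to FPKM, or exact Clopper-Pearson intervals for shares, and they cover counting error only.

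LncRNAs are transcripts that are not translated into a known protein. Many are kept at low copy number in the nucleus, while a few groups are abundant: host genes of small nucleolar RNAs (snoRNAs), whose introns carry guide RNAs for ribosomal RNA modification and whose spliced exons are left over, and transcripts that run over the genes of small structural RNAs such as 7SK, 7SL and U3. Antisense lncRNAs start near or within a protein-coding gene and are transcribed in the opposite direction. VPS9D1-AS1, which the study names FAISL, is one of these and lies opposite VPS9D1, the gene of an endosomal protein with a VPS9 domain.

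The sequences around the transcription starts of host genes are shown first, with VPS9D1-AS1, because some share a feature that the abundance did not use. Shown are the 6 host genes among the 50 most abundant loci whose deposited 5′ end lay within 100 bases of an annotated start in the RefSeq table. Host genes of this class often begin transcription at a C followed by a run of pyrimidines, the 5′ terminal oligopyrimidine start known from ribosomal protein genes. Each line gives 30 bases from RefSeq (GRCh38.p14), 5′ to 3′ on the transcribed strand, and the capitals mark the first 5 bases of the transcript.
SNHG7 (chr9:136728165-136728194, minus strand): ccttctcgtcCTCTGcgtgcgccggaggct
SNHG19 (chr16:2155339-2155368, minus strand): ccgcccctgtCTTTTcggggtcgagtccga
SNHG12 (chr1:28581854-28581883, minus strand): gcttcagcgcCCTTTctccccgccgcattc
SNHG1 (chr11:62855866-62855895, minus strand): gagattcgttCTCATttttctactgctcgt
SNHG8 (chr4:118278752-118278781, plus strand): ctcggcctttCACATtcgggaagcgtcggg
SNHG5 (chr6:85678714-85678743, minus strand): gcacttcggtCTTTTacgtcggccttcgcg
VPS9D1-AS1 (chr16:89711846-89711875, plus strand): ctcctcctacAAAGCctgggcccgtggggg

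A C followed by 4 letters that are each C or T, read on the transcribed strand from the annotated start, was found in SNHG19, SNHG12 and SNHG5. These were 3 of the 9 snoRNA host genes with a start sequence in the RefSeq table. Of the 9, 7 had a deposited 5′ end within 100 bases of that start, these 3 among them. The same letters stood at 4.07% of the 35116 starts in that table. They stood at 3.73% of the 134 listed loci that could be matched to one, which include the 3 host genes. SNHG7 and SNHG1 begin with shorter pyrimidine runs, SNHG8 begins with C followed by A, and VPS9D1-AS1 begins with A. The deposited 5′ ends lay close to these starts: 9 bases downstream in SNHG7, 6 in SNHG19, 15 in SNHG12, 55 in SNHG1, 3 in SNHG8, 18 in SNHG5 and 10 in VPS9D1-AS1. Over the 134 matched loci the median distance was 434 bases, and 45 loci lay within 100 bases. The deposited 5′ end of GAS5 lay 1064 bases downstream of its start in the RefSeq table, so that start sequence is not shown. Whether the assembly is short or another start was used was not tested.

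Ribosomal DNA held nearly all reads of the table. Of 2056854 reads, 2006230 fell on the ribosomal DNA rows, a share of 97.5% (95% interval 97.52% to 97.56%). By FPKM the share was 89.5%. The whole amount lay on 2 transcripts assembled on the minus strand, 1 from 8218527 to 8446613 with 93.6% of the ribosomal DNA reads and 1 from 8218527 to 8257974 with 6.43%. The third transcript, on the plus strand from 8209614 to 8255663, had 0 reads. These strands are as deposited and were not checked against those of the ribosomal RNA genes. The table lists selected transcripts, so these are shares of the listed reads and not of the sequenced library.

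Outside ribosomal DNA 50624 reads remained, and 36842 of them belonged to 1 locus. Abundance fell steeply over the first ranks and was then nearly flat. The first locus held 76.0% of the FPKM outside ribosomal DNA, the first 3 held 91.9%, and the first 10 held 94.2%. The median locus stood at 2.73 FPKM and 11 reads, with 1.98 and 4.46 FPKM as the quartiles. At least 1 FPKM was measured for 276 of 331 transcripts and 248 of 291 loci. Only 24 loci reached 10 FPKM and 4 reached 100 FPKM. No read was counted for 42 transcripts and 33 loci. A count of 0 allows up to 3 reads (a one-sided 95% limit, unlike the two-sided intervals), which is at most 0.317 FPKM for a transcript of 1000 bases.

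**Figure D1:**
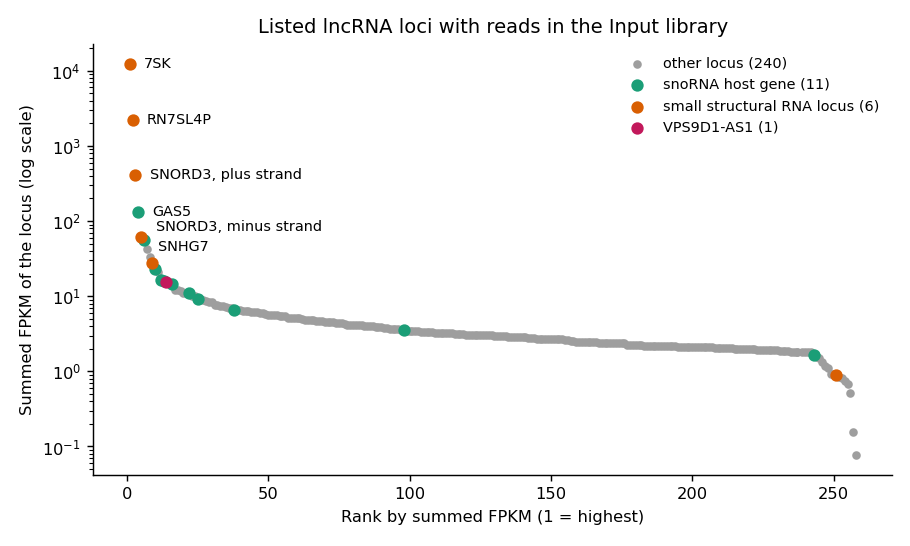
Summed FPKM of each of the 258 loci with reads (log axis) against its rank, with small structural RNA loci, snoRNA host genes and VPS9D1-AS1 in colour. The 3 highest loci are small structural RNA loci, GAS5 comes next with 130.56 FPKM, and the middle of the order lies between 1.98 and 4.46 FPKM.

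Small structural RNA loci led the order. A transcript on chromosome 6 (52941639 to 52995944, plus strand) that spans RN7SK had 12493 FPKM (12366 to 12621) and 36842 reads. RN7SK makes the 7SK RNA, which holds the elongation factor P-TEFb inactive. The second locus, on chromosome 3 (15680273 to 15738746, plus strand), spans the 7SL-related pseudogene RN7SL4P and part of BTD and had 2211 FPKM (2145 to 2278) from 4276 reads. 7SL is the RNA of the signal recognition particle, which directs ribosomes to the endoplasmic reticulum. The first locus exceeded the second 5.65-fold, far outside both counting intervals.

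The U3 snoRNA genes on chromosome 17 gave the third and the fifth locus. U3 is needed to cut the ribosomal RNA precursor. The plus-strand locus (19061928 to 19188282), over SNORD3A and SNORD3B-1 among others, had 406 FPKM and 1536 reads. The minus-strand locus (19063901 to 19190251), over SNORD3A and SNORD3C, had 60.6 FPKM and 286 reads. A further locus over 4 small nuclear RNA genes at 17q21 (43239592 to 43251959) ranked ninth with 27.6 FPKM (23.04 to 32.7). In contrast, the locus over the U1 genes RNU1-2 and RNU1-4 on chromosome 1 and the one over the U4 gene RNU4-1 on chromosome 12 had 0 reads. In all, 8 loci spanned small structural RNA genes. RN7SL4P was the only pseudogene counted in this class, and its locus held 13.4% of the FPKM and 8.45% of the reads outside ribosomal DNA. Other pseudogenes of such RNAs were not counted in the class. The 8 loci held 92.4% of the FPKM and 85.1% of the reads outside ribosomal DNA, and 7550 reads remained on the other 283 loci.

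The spans of these transcripts do not show which bases were read. FPKM was taken to divide by the full spliced length, which the sources used here do not state, and no transcript can be longer than its span. On that basis the highest length that each FPKM allows can be computed from FPKM per read. The 7SK transcript was counted as at most 312 bases long, 0.574% of its span, and the RN7SL4P transcript as at most 204 bases. The genes for 7SK, 7SL and U3 have many near-identical copies, and reads of the copies cannot be told apart here.

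Among the listed loci outside the small structural RNA loci, the snoRNA host genes GAS5 and SNHG7 were the most abundant named lncRNAs. The table lists selected transcripts, so lncRNAs that are not listed have no level here and are not ranked. Of 36 host gene names looked for, with aliases such as SNHG2 for GAS5 among them, 11 genes were listed, with 289 FPKM and 2093 reads together. They held 23.2% of the FPKM left after the small structural loci, with the RN7SL4P locus among them, were removed, and 27.7% of those reads (26.7% to 28.7%). The share depends on what is removed: with only 7SK left out, they held 7.31% of the FPKM outside ribosomal DNA. Their median was 14.7 FPKM beside 2.73 FPKM over all 291 loci. By span, 10 of the 11 contained RefSeq snoRNA genes, 33 in all. With the structural loci left out, 5 of the 10 and 8 of the 20 most abundant loci were host genes.

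GAS5 was the highest of them. It is a growth-arrest transcript that carries many box C/D snoRNA genes in its introns, and it had 131 FPKM (121 to 140) from 758 reads over 4 transcripts, 45.2% of the FPKM of the whole group. SNHG7 followed with 56.1 FPKM (51.8 to 60.6) and 628 reads, so that GAS5 stood 2.33-fold higher. SNHG15 had 22.7 FPKM (19.4 to 26.4) and 167 reads. These 3 host genes did not overlap in their counting intervals.

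The next host genes did overlap. SNHG6 had 16.7 FPKM (13.4 to 20.6), SNHG19 had 16.1 FPKM (12.5 to 20.5) and SNHG12 had 14.7 FPKM (12.3 to 17.4). SNHG1, which carries 9 RefSeq snoRNA genes in its span, followed with 10.9 FPKM (9.15 to 12.9). Below these came SNHG8 with 9.24 FPKM, SNHG5 with 6.63 FPKM, SNHG30 with 3.51 FPKM and SNHG29 with 1.64 FPKM from 4 reads. The number of snoRNA genes in the span and the level did not run in the same order: SNHG7 spans 2 and SNHG1 spans 9.

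**Figure D2:**
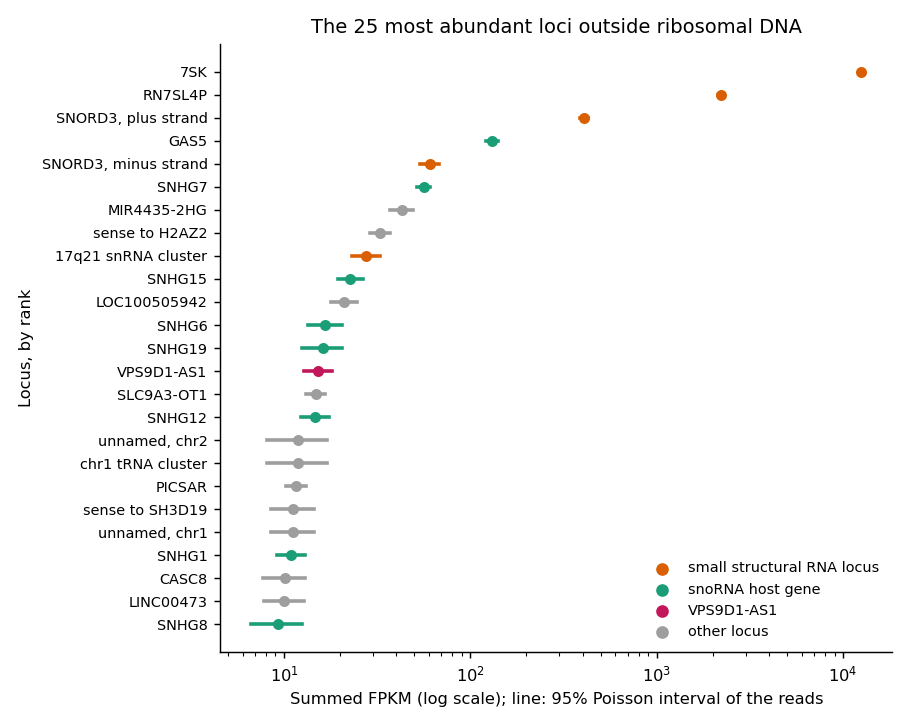
Summed FPKM of the 25 most abundant loci outside ribosomal DNA (log axis), with points for the level and lines for the 95% Poisson interval of the reads. The intervals of the first 4 loci do not overlap, and that of VPS9D1-AS1 (12.8 to 18.01 FPKM) overlaps those of 13 loci.

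Other abundant lncRNAs came from loci of several kinds. MIR4435-2HG, a long transcript of chromosome 2 (111429310 to 111495045, minus strand), had 42.8 FPKM (37.0 to 49.3) from 194 reads. A related copy of part of it lies at the CYTOR and NCAL1 locus of the same chromosome (87455492 to 87583560, plus strand), which had 6.46 FPKM from 24 reads, and reads of the shared part could be counted at either. LOC100505942 on chromosome 16, deposited as lnc-AGRP-1:4, had 20.95 FPKM (17.8 to 24.5). SLC9A3-OT1 had 14.8 FPKM (13.1 to 16.7). LINC00473, a cAMP-induced lncRNA, had 10.1 FPKM (7.76 to 12.8), and LINC02982 had 8.88 FPKM. CASC8 at 8q24, which falls outside the rule for named genes and was named after its value was seen, had 10.1 FPKM.

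Some high loci carried no lncRNA name and lay on the strand of a protein-coding gene. The eighth locus (chr7:44821209-44834209) lies within H2AZ2, the gene of a histone H2A.Z variant, and had 32.8 FPKM (28.8 to 37.2) from 247 reads. Loci on the strand of SH3D19, CASP2 and SIPA1L2 had 11.2, 9.10 and 8.72 FPKM. In total 52 loci overlapped a same-strand protein-coding gene and no lncRNA gene, with a median of 2.56 FPKM. The 109 loci on a same-strand RefSeq lncRNA gene had a median of 3.06 FPKM, and 39 at pseudogenes without such a gene had 2.19 FPKM. Reads of messenger RNA and of a lncRNA on the same strand cannot be told apart from these values. Whether reads of overlapping genes on opposite strands, such as VPS9D1-AS1 and VPS9D1, were separated was not checked.

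VPS9D1-AS1 ranked 14th of 291 loci. Its main locus (chr16:89711866-89717577, plus strand) had 15.2 FPKM (12.8 to 18.01) from 138 reads, 5.58 times the median locus and above 95.2% of the loci. The median and the percentage are taken over the listed loci, 33 of them with 0 reads, so both depend on which transcripts were listed. GAS5 was 8.56 times as abundant as VPS9D1-AS1 and 7SK 819 times. Of the 22 loci on chromosome 16, LOC100505942 and SNHG19 stood above it. It was first of the 37 loci whose current symbol is an antisense name, outside the structural loci. ERCC6L2-AS1 with 6.92 FPKM and OR2A1-AS1 with 6.33 FPKM came next, and the separate VPS9D1-AS1 locus described below is counted too. The symbol does not take in all antisense loci. MMP24OS, deposited as MMP24-AS1, had 7.42 FPKM. LOC100505942 and SNHG7, which overlap RIPOR1 and DIPK1B on the opposite strand, stood above VPS9D1-AS1.

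The exact place in the order is less certain than the level. The 5 loci above VPS9D1-AS1 were the 17q21 small nuclear RNA locus, SNHG15, LOC100505942, SNHG6 and SNHG19. The 5 below were SLC9A3-OT1, SNHG12, an unnamed locus on chromosome 2 (32916229 to 32916604) with 11.95 FPKM, a locus over transfer RNA genes on chromosome 1 (161447403 to 161455039) with 11.95 FPKM, and PICSAR with 11.6 FPKM. The intervals of 13 loci, between ranks 11 and 24, overlapped that of VPS9D1-AS1. SNHG15 (19.4 to 26.4 FPKM) lay wholly above it.

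A further transcript of VPS9D1-AS1 was assembled as a locus of its own. It starts 111 bases beyond the main locus (chr16:89717689-89718363), carries the same database name, and had 3.77 FPKM (2.36 to 5.71) from 22 reads, which put it at rank 91. All 3 transcripts together had 19.02 FPKM (16.2 to 22.2) from 160 reads. With loci of the same gene joined, VPS9D1-AS1 ranked 12th of 286.

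Most loci were listed with 1 transcript. Several transcripts were listed for 27 loci, 26 of them with reads, and the most abundant transcript held a median of 61.9% of the locus FPKM (36.8% to 100%). The division of reads between overlapping transcripts is an estimate of the assembler, and the intervals do not include that error.

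GAS5 had no dominant transcript. Its 4 transcripts, which share their ends to within 1 base, had 54.1, 39.7, 31.4 and 5.24 FPKM, or 41.5%, 30.4%, 24.1% and 4.01% of the locus. SNHG7 was divided 75.5% to 24.5%, SNHG15 86.8% to 13.2% and SNHG6 90.1% to 9.90%. SNHG12 had 3 transcripts, of which the first held 62.5%, and the leading transcript of SNHG1 held 45.1%. The leading LINC00473 transcript held 63.8%.

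In VPS9D1-AS1 the shorter-spanning transcript led. It runs from 89711866 to 89717015 and had 10.7 FPKM from 106 reads, 69.9% of the locus FPKM and 76.8% of its reads (68.9% to 83.6%). The second transcript ends at 89717577 and had 4.58 FPKM from 32 reads. From FPKM per read the first was counted as at most 1050 bases long and the second as at most 738 bases. Both limits, which take FPKM as divided by the full spliced length, lie below the FAISL length that the paper reports. That length came from RACE (rapid amplification of cDNA ends) in MDA-MB-468 cells. Whether the listed transcripts are separate isoforms or assembled parts of a longer RNA was not tested. The minus-strand U3 locus is where the measure mattered most: its first transcript held 61.3% of the FPKM but 30.4% of the reads, being counted as at most 247 bases against 896 bases for the other. The unnamed locus on chromosome 2, with 31 reads over 6 transcripts with nearly the same ends, also changed its leader, from the one with 36.8% of the FPKM to another with 41.9% of the reads (24.5% to 60.9%).

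**Figure D3:**
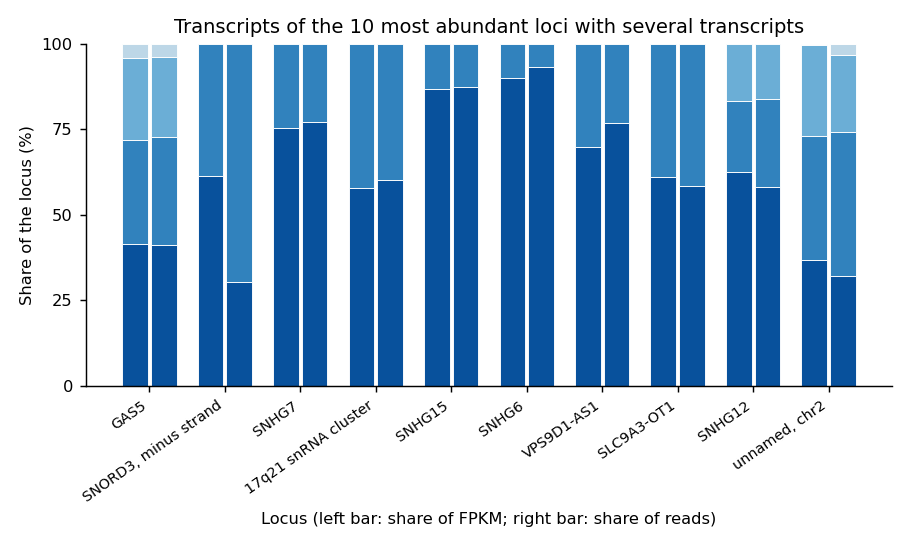
Shares of each transcript in the 10 most abundant loci with several transcripts, by FPKM (left bar) and by reads (right bar), in %, with the transcripts stacked from the highest FPKM share at the bottom. The leading shares run from 36.8% to 90.1% by FPKM, and the minus-strand U3 locus and the unnamed chromosome 2 locus change their leading transcript between the measures.

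All listed transcripts scored as non-coding. The authors' CPC and CNCI scores, which are below 0 for sequences classed as non-coding, were negative for every transcript outside ribosomal DNA, with highest values of -0.0169 and -0.0004096. The CPAT coding probability, a fraction from 0 to 1, had a median of 0.0271 and a maximum of 0.360. Tables of lncRNAs are commonly filtered on such scores, so these limits are not read as a finding. Within them, the 50 most abundant transcripts had a median CPAT value of 0.0525 (order-statistic interval 0.0287 to 0.0779) and the other 281 had 0.0250. The value depended on how many were taken: the 25 most abundant had 0.0296 and the 100 most abundant had 0.0434. Across the 289 transcripts with reads, which are not independent replicates, Spearman's rho with FPKM was 0.20 for CPAT, -0.0047 for CPC and -0.075 for CNCI.

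Single genes stood apart in this measure. The leading SNHG7 transcript had a CPAT value of 0.293, while the 4 GAS5 transcripts lay between 0.0056 and 0.0082. The less abundant transcript of VPS9D1-AS1 had 0.346, one of the highest values in the table, and the leading one had 0.0978. The further, separate transcript had 0.0566.

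**Figure D4:**
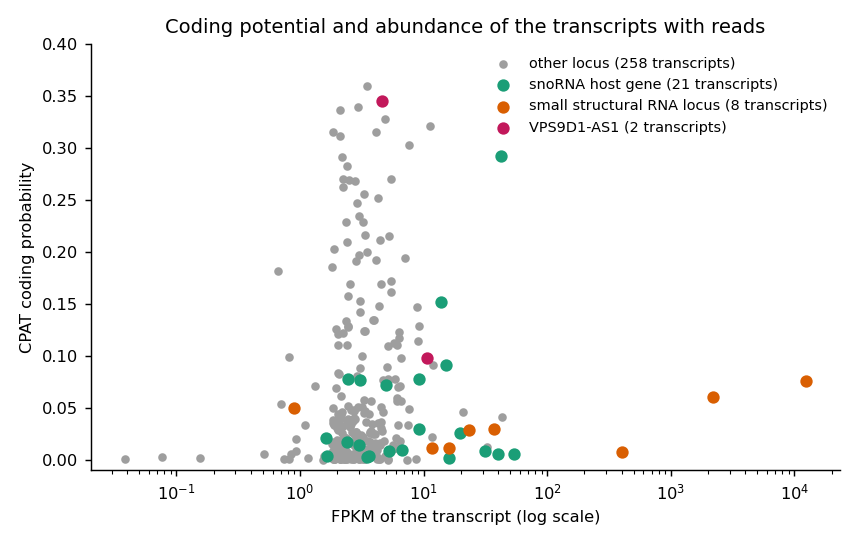
CPAT coding probability of the 289 transcripts with reads against FPKM (log axis), with the groups of loci in colour. All points lie at or below 0.360, and the 2 transcripts of the main VPS9D1-AS1 locus lie at 0.0978 and 0.346.

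By chromosome, single loci made up about as much as all others on some chromosomes and far less on others. With the structural loci left out, chromosome 1 held 20.4% of the FPKM, and GAS5 made up 51.5% of that. Chromosome 7 held 10.1%, with 26.01% of it from the locus sense to H2AZ2, chromosome 9 held 8.91%, with 50.6% of it from SNHG7, chromosome 16 held 8.51%, with 19.8% of it from LOC100505942, and chromosome 2 held 7.56%, with 45.5% of it from MIR4435-2HG. Median levels per transcript differed less, from 1.90 FPKM on chromosome 3 (8 transcripts) to 4.39 FPKM on chromosome 13 (2 transcripts). Chromosome 18, where 1 of 3 transcripts had reads, was left out, and both ends of this range rest on few transcripts.

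**Figure D5:**
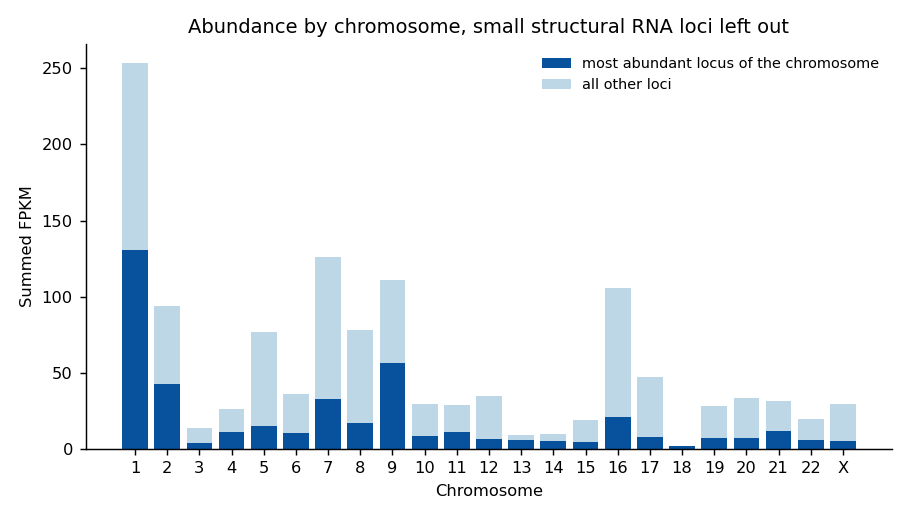
Summed FPKM per chromosome with the small structural RNA loci left out, the darker part of each bar being the most abundant locus of that chromosome. Chromosome 1 stands highest with 253 FPKM, of which GAS5 is 51.5%.

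Of 25 lncRNAs studied in breast cancer that were looked for, 6 were listed as the leading name of a locus, with 0 to 11.6 FPKM. The others have no level of their own in this table of selected transcripts. PICSAR, first described in squamous carcinoma, had 11.6 FPKM (10.3 to 13.0) from 275 reads. LINC-PINT, a p53-regulated lncRNA, had 4.68 FPKM (3.57 to 6.02). LITATS1 had 4.28 FPKM (3.27 to 5.50) and CRNDE had 3.43 FPKM (2.33 to 4.87). MIR22HG had 2.88 FPKM from 7 reads and MIR100HG had 0 reads. The median of the 6 was 3.86 FPKM beside 2.73 FPKM over all loci.

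Of 8 nuclear body and chromatin lncRNAs, the listed one was HOTAIR, a transcript of the HOXC cluster that binds chromatin-modifying complexes, with 2.76 FPKM (1.11 to 5.70) from 7 reads. The others of this list, MALAT1 and NEAT1 among them, were looked for and matched no listed locus. Because the table lists selected transcripts, this gives no level for them and does not show that they were absent or lower than HOTAIR. Neither the 4 lncRNAs of luminal breast cells (DSCAM-AS1, GATA3-AS1, MAPT-AS1, LINC00993) nor the 4 of other cell types (H19, LINC00261, MIAT, MIR142HG) named a listed locus, so the label of the line could not be checked against them. An unnamed plus-strand locus (chr11:1995983-1996685) overlaps H19, which RefSeq places on the minus strand, and had 3.47 FPKM (1.94 to 5.72) from 15 reads.

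Mature microRNAs of the RefSeq table lay on the same strand and wholly within the span of 3 loci, a feature looked for after the levels were known. MicroRNA genes on the opposite strand of a locus, such as MIR3134 in the RN7SL4P locus, were not counted. MIR23AHG on chromosome 19 (13836536 to 13842910, minus strand) had 7.28 FPKM (4.56 to 11.02) from 22 reads. Its span takes in the miR-23a hairpin and ends before miR-27a and miR-24-2, the other members of this cluster. MIR22HG, at 2.88 FPKM, spans miR-22, and MIR924HG, at 2.05 FPKM from 5 reads, spans miR-924 and the miR-5583 arms of MIR5583-2. The main mature arms are given below from RefSeq (GRCh38.p14), with the seed (bases 2 to 8) in capitals, to show that the cluster members inside and outside the listed transcript differ in seed.
hsa-miR-23a-3p (chr19:13836595-13836615, inside): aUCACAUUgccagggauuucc
hsa-miR-27a-3p (chr19:13836447-13836467, outside): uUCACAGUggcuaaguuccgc
hsa-miR-24-3p (chr19:13836289-13836310, outside): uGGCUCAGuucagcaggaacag
hsa-miR-22-3p (chr17:1713914-1713935, inside): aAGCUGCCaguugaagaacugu
The levels above are those of the host transcripts. Mature microRNAs are shorter than the fragments of such a library, and their levels were not measured here.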

How the data were processed

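RNA of MDA-MB-231 cells expressing Flag-FAK was sequenced by the authors, and the Input library was used here. The kit offers both poly(A) selection and ribosomal RNA removal, and which was used, like the aligner and annotation, is not given in the sources used here. The submitters' processing notes name GRCh38 and StringTie. The authors deposited whole-number read counts and FPKM (reads per kilobase and scaled to the sequenced fragments) for lncRNA transcripts, with CPC and CNCI scores and a CPAT fraction. The 7007 lines repeat each transcript once per predicted target gene, and each was used once. Whole numbers may be rounded estimates, since 1 transcript had 1 read at 0.0382 FPKM.

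FPKM and reads were summed over the transcripts of a locus (the identifier without its last number). Loci were named by their deposited name (33), a same-strand RefSeq gene (139) or a RefSeq gene by position (35), and 84 had no symbol. Strand was taken as deposited and not checked, and names by strand and the sense and antisense classes rest on it. The highest length that FPKM allows used transcripts with at least 20 reads. FPKM per read implies a divisor of at least 9464037 fragments. Named were the 20 highest loci with a symbol by name or strand, the 10 highest transcripts, VPS9D1-AS1 with 5 neighbours on each side, and all listed members of the gene lists. Members and lists were chosen with earlier results of these data known. Scripts were tested on simulated data. Python 3.11.15, pandas 2.3.3 and scipy 1.17.1 were used. The other libraries were not used.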

Additional observations from a re-analysis of the deposited data

How the results depend on the processing

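With 1 library no replicate could be left out. No paired analysis was possible because the comparison holds 1 library. Over 31 alternatives to 8 results, 20 stayed within the limit set for their result. The limit was counting error for ranks and for shares of loci, and 1.5 times for counts. For isoform shares it was the SD over loci (17.2 points), which is wide, and for CPAT the order-statistic interval of the median. VPS9D1-AS1 ranked 14th by FPKM (12 to 16 over its counting interval), 13th by reads and 15th with ribosomal DNA ranked too. It moved to rank 17 when each locus was given the FPKM of its most abundant transcript, and to rank 9 of 283 with the small structural RNA loci left out, which removes 5 loci above it. Leaving out loci sense to a protein-coding gene put it 13th, an alternative chosen, like joining loci of the same gene, after seeing the data. Requiring 10 reads beside 1 FPKM reduced 276 transcripts to 179 and 248 loci to 156. The share of the 10 most abundant loci (94.2%) was 89.5% by reads, 76.2% without 7SK and 29.6% without all small structural loci. The ribosomal DNA share of 97.5% by reads was 89.5% by FPKM. The snoRNA host genes held 7.31% of the FPKM without ribosomal DNA and 7SK, 15.2% of the reads, 1.76% with 7SK in the total, and 23.2% with all small structural loci removed, a total added after seeing the data. With a median of 11 reads per transcript, most ranks are set by few reads.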

Other observations

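Strand was uneven. Of the 331 transcripts outside ribosomal DNA, 216 (65.3%) were assembled on the minus strand, and of 38 with at least 50 reads 29 were. The minus strand held 79.3% of the reads left without the small structural loci and 40 of the 50 most abundant transcripts. Named and unnamed transcripts were alike in this, with 65.6% and 64.6% on the minus strand, and 49.7% of the 11462 RefSeq lncRNA genes with a known strand lie on it. The part of the assembly in this was not tested.

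Low counts were unevenly filled. Between 1 and 4 reads stood 16 transcripts, between 5 and 8 reads 76, and 25 had exactly 5. Order by reads and by FPKM parted for long transcripts: SLC9A3-OT1 ranked 15th by FPKM and 7th by reads, and PICSAR 19th and 8th.

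The table gives each transcript predicted target genes. VPS9D1 is given for 2 transcripts, both of VPS9D1-AS1, and PTK2, the gene of FAK, for 0. The median transcript has 10 predicted targets.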
